A study of Mus musculus with 9 samples.

Results

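The transcripts described here are 9 neuronal genes of the axon, Nefl, Nefm, Nefh, Ina, Prph, Stmn2, Gap43, Tubb3 and Thy1, chosen by gene symbol from a table of 40879 genes. Each of the 9 symbols had 1 row, and all 9 passed the filter on low counts that 15351 genes passed. Gene expression was measured by 3′ mRNA sequencing in whole spinal cord of wild-type mice, in 9 libraries that fell into 3 groups of 3. Naive mice had neither disease nor treatment. The mice of the other two groups carried experimental autoimmune encephalomyelitis (EAE), in which immune cells directed at myelin enter the cord and which serves as a model of multiple sclerosis, and were given either the vehicle alone or GV1001. The latter is a peptide with a stretch of the telomerase protein. The mouse strain, age, sex, dose and day of sampling, and whether the 3 replicates of a group were separate animals, are not given in the sources used here, so p-values measure only the spread between these libraries.

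Neurofilaments are the intermediate filaments of the axon. The light, medium and heavy chains encoded by Nefl, Nefm and Nefh assemble together, with alpha-internexin (Ina) in central neurons and peripherin (Prph) mainly in motor and peripheral sensory neurons, and they set the calibre of large myelinated axons. Stmn2 and Gap43 encode growth-cone proteins, Tubb3 a neuronal tubulin of microtubules and Thy1 a surface glycoprotein of axons that T cells and fibroblasts also carry. The messenger RNA of these proteins lies mainly in neuronal cell bodies, while the protein travels down the axon. The light chain in blood and spinal fluid is used as a marker of axonal damage in multiple sclerosis, but that is a measure of released protein, not of transcripts.

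Total counts per library ranged from 5247246 to 6174870. Levels are given as CPM, counts scaled to a common library size, by the TMM method. The 9 genes held between 167 counts (Prph in vehicle replicate 1) and 13546 counts (Nefl in naive replicate 2) in a library, and together 0.555% to 0.780% of its counts. Because the libraries read transcript ends, a count does not grow with transcript length, but levels were compared between libraries and not between genes. Where a gene had no count, its level could still be as high as 0.485 to 0.567 CPM, depending on the library (3 counts, counting error only). Defining markers of the cord were present in all groups, with 10 myelin and 8 astrocyte genes all counted in every group. The astrocyte genes summed to 7850 to 8305 CPM in naive, 8012 to 8594 CPM in vehicle and 7165 to 7677 CPM in GV1001 libraries. The mitochondrial share of counts was 5.58% to 6.23% in naive, 4.04% to 4.91% in vehicle and 4.72% to 5.45% in GV1001 libraries, so it was lower in both EAE groups without overlap, and its part in the results was not tested.

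Setting vehicle libraries against naive ones asked how axonal transcripts differ in the diseased cord. The 3 neurofilament chains lay lower in each of the 3 vehicle libraries than in any naive library. Nefl, the light chain that the other chains need for assembly, was at 2333, 2361 and 2361 CPM in naive replicates 1 to 3 and at 1707, 2083 and 1766 CPM in vehicle replicates 1 to 3. The naive values were nearly level, and vehicle replicates 1 and 3 lay lowest. The group means were 2352 ± 16.4 and 1852 ± 202 CPM (SD, n = 3), and the log2 fold change was −0.34 ± 0.11 (SE). Nefm, the medium chain with a long phosphorylated tail, was at 1956, 1858 and 2008 CPM in naive and at 1271, 1775 and 1419 CPM in vehicle libraries, a log2 fold change of −0.38 ± 0.13. Nefh, the heavy chain of mature thick axons, was at 1348, 1233 and 1293 CPM in naive and at 985, 1167 and 953 CPM in vehicle libraries, a log2 fold change of −0.32 ± 0.11. Nefm and Nefh overlap other annotated genes, and the counting is not stated to use strand, so some of their reads could belong to those. For all 3 chains vehicle replicate 2 lay nearest to the naive libraries.

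**Figure D1:**
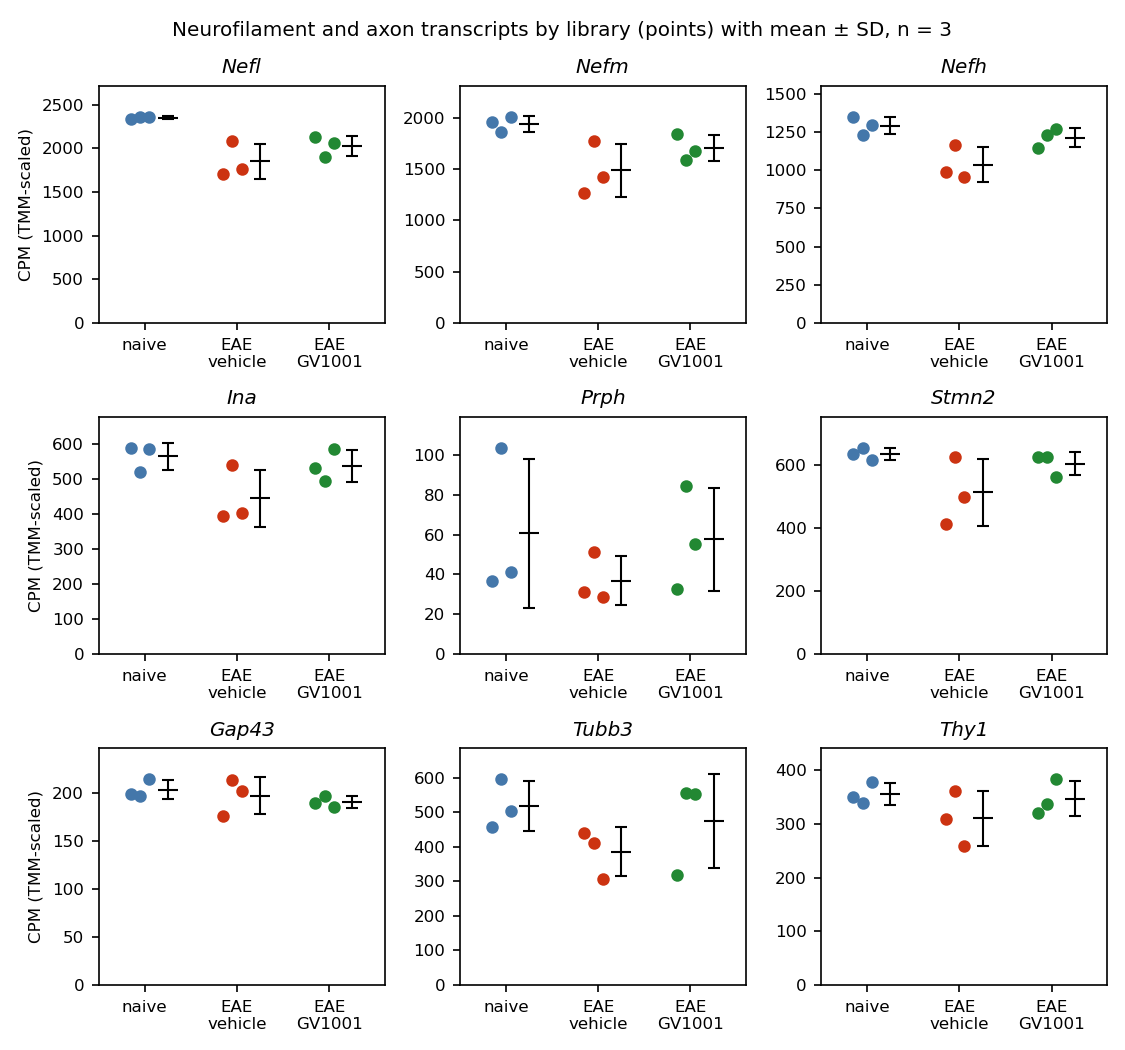
Level of each of the 9 genes in every library, in CPM on TMM-scaled library sizes (vertical axes from 0), by group; coloured points are libraries in the order of their replicate number, and black bars with whiskers are the mean ± SD of 3. Nefl, Nefm, Nefh and Tubb3 do not overlap between the naive and vehicle groups, while Gap43 lies between 176 and 215 CPM in all 9 libraries.

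Of the remaining genes, Ina and Stmn2 resembled the chains in size of difference but overlapped with naive cord. Ina was at 588, 520 and 584 CPM in naive and at 393, 538 and 402 CPM in vehicle libraries (log2 fold change −0.34 ± 0.13). Stmn2, which keeps microtubules dynamic and supports axon growth and maintenance, was at 634, 653 and 615 CPM in naive and at 413, 625 and 498 CPM in vehicle libraries (−0.31 ± 0.14). In both genes the overlap came from vehicle replicate 2 alone. Thy1 overlapped as well, at 350, 338 and 377 CPM in naive and at 310, 362 and 259 CPM in vehicle libraries (−0.20 ± 0.13).

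Tubb3, Prph and Gap43 had other patterns. Tubb3 was at 456, 596 and 503 CPM in naive and at 440, 412 and 306 CPM in vehicle libraries (log2 fold change −0.42 ± 0.21), so the groups did not overlap but were separated by a narrow gap. Prph was at 36.8, 104 and 41.4 CPM in naive and at 30.9, 51.1 and 28.5 CPM in vehicle libraries (−0.72 ± 0.43). Its naive mean rested on replicate 2, and without that library the log2 fold change was −0.09. Gap43, a substrate of protein kinase C at growth cones and sprouting terminals, was at 199, 197 and 215 CPM in naive and at 176, 213 and 203 CPM in vehicle libraries. Its log2 fold change was −0.05 ± 0.10, and without vehicle replicate 1 it was 0.03.

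None of the 9 genes passed the threshold of 0.05 on the Benjamini-Hochberg adjusted p of edgeR's quasi-likelihood test, taken over all 15351 genes tested. The smallest adjusted p among them was 0.116, for Nefl, and 0.0195% of all genes passed. At an unadjusted p under 0.05 in edgeR, 5 of the 9 were lower (Nefl, Nefm, Nefh, Ina and Stmn2) and 0 higher, against 8.07% of all genes lower and 19.3% in either direction. All 9 fold changes were below 0, as were 50.5% of all genes, and the median of the 9 was −0.34 against 0.00 over all genes tested and −0.08 over the 1985 genes with a mean of 100 CPM or more. Vehicle libraries lay below naive libraries without overlap for 4 of the 9, against 11.7% of all genes. Of the 1985 genes with a mean of 100 CPM or more, which include 8 of the 9 (all but Prph), 65.4% were below 0, 19.4% were lower at an unadjusted p under 0.05 and 23.6% lay below naive without overlap. In DESeq2 2 of the 9 passed, Nefl (adjusted p = 0.0202) and Nefh (0.0472), where 6.52% of genes passed and 1.61% passed and were lower. Without vehicle replicate 2, 5 of the 9 passed in edgeR (Nefl, Nefm, Nefh, Ina and Stmn2) with adjusted p-values from 0.0139 to 0.0238. That library lay nearest to naive in these 5 genes, so leaving it out had to widen their difference. Leaving out any other single library gave no call among the 9. The fit without vehicle replicate 2 called 1652 of 15848 genes in place of 3, of which 469 were lower. Then 8 of the 9 genes, all but Gap43, lay below naive without overlap, against 21.1% of all genes with the same libraries.

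Among the vehicle libraries, Nefl, Nefm and the sum of the 3 chains were lower where microglial and macrophage transcripts were higher, while Nefh was lowest in replicate 3. The 12 genes of that list, among them Ctss, C1qa, Cd74 and Lyz2, had a summed level of 320 to 401 CPM in naive libraries and of 9412, 986 and 2796 CPM in vehicle replicates 1 to 3. In GV1001 replicates 1 to 3 they summed to 478, 2891 and 866 CPM. All 12 had counts in every group. The summed level of the 3 neurofilament chains was 5637, 5451 and 5662 CPM in naive, 3963, 5025 and 4138 CPM in vehicle and 5111, 4719 and 5009 CPM in GV1001 libraries. Within each EAE group, the library with the least microglial signal had the highest summed neurofilament level. Over the 6 EAE libraries, the mean log2 CPM of the 3 chains and the log2 summed level of the list had a Pearson r of −0.89 and a Spearman rho of −0.94, and r was −0.76 without the 2 libraries farthest from the median of the list. Taken singly, Nefl and Nefm each had an r of −0.95 with the list. That of Nefh was −0.61 (rho −0.31), and −0.53 without the 2 farthest libraries. Gap43 had an r of −0.33 with the list over the same 6 EAE libraries, Tubb3 0.18 and Prph −0.15. These values are descriptions, since both quantities are shares of the same libraries. The part of the inflammatory cells in the neurofilament difference was not tested. In whole tissue, fewer neurons and less RNA per neuron cannot be told apart.

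**Figure D2:**
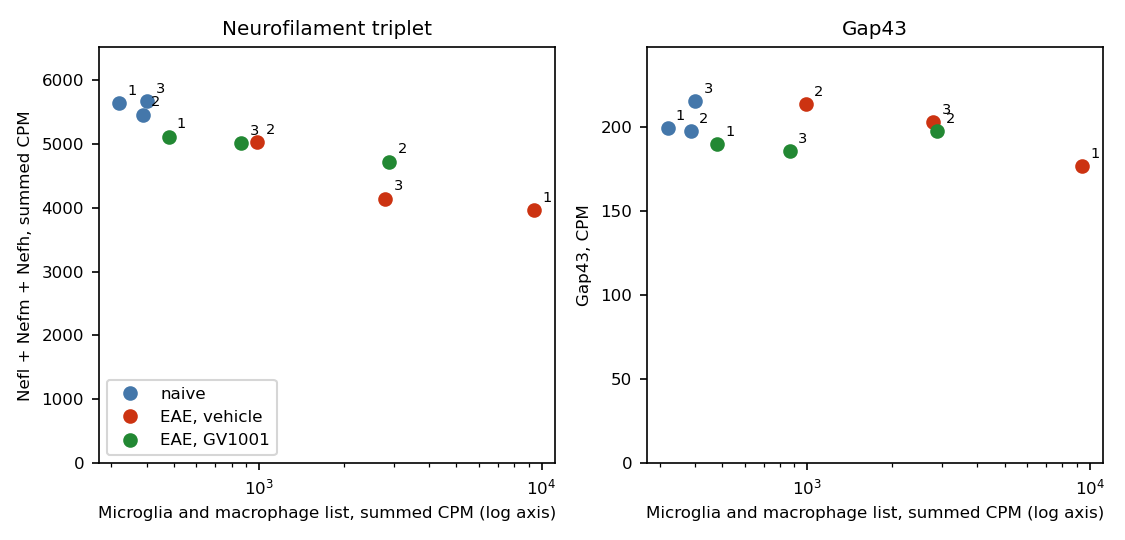
Summed level of Nefl, Nefm and Nefh (left, CPM) and level of Gap43 (right, CPM) against the summed level of the 12 microglia and macrophage genes (CPM, log axis), 1 point per library with its replicate number, coloured by group. The neurofilament sum runs from 5662 CPM in a naive library to 3963 CPM in vehicle replicate 1, the library with the most microglial signal (9412 CPM); Gap43 is also lowest in that library (176 CPM) but otherwise lies between 185 and 215 CPM, with 203 and 197 CPM in the 2 libraries next in microglial signal.

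The ratio of the neurofilament chains to other neuronal genes of the same libraries varied little. The summed level of 24 general neuron genes (vesicle proteins such as Snap25 and Syt1, transmitter enzymes and transporters, neuronal RNA-binding proteins) was 9418 to 9945 CPM in naive, 6786 to 9242 CPM in vehicle and 8326 to 9209 CPM in GV1001 libraries. The ratio of the 3 chains to this sum stayed between 0.544 and 0.584 in the 9 libraries. It was 0.569 to 0.579 in naive, 0.544 to 0.584 in vehicle and 0.544 to 0.567 in GV1001 libraries. The vehicle range enclosed the naive range through replicate 1 alone (0.584), since vehicle replicates 2 and 3 were at 0.544 and 0.557. All GV1001 libraries lay below all naive libraries, but by a narrow gap, from 0.567 in GV1001 replicate 2 to 0.569 in naive replicate 3. Vehicle replicates 2 and 3 lay as low as the GV1001 libraries, and no share over other genes was taken for this ratio. Myelin genes of oligodendrocytes, which are not neurons, had a median difference close to that of the general neuron genes. They summed to 18552 to 20381 CPM in naive, 13913 to 17703 CPM in vehicle and 15332 to 16706 CPM in GV1001 libraries, with both EAE groups below naive. In vehicle against naive 9 of the 10 myelin genes were below 0 (median −0.28), 7 lay below naive without overlap and 0 passed in edgeR. Of genes at 100 CPM or more, 65.4% were below 0 and 23.6% lay below naive without overlap. In GV1001 against vehicle the median of the myelin genes was 0.03. Their part in the neurofilament difference was not tested. Within libraries, Nefm had 0.787 to 0.850 counts per count of Nefl in naive and 0.744 to 0.852 in vehicle cord, and Nefh 0.522 to 0.578 and 0.540 to 0.577. Of the 8 ratios to Nefl, that of Gap43 was the only one whose vehicle and naive libraries did not overlap, at 0.0836 to 0.0911 in naive, 0.102 to 0.115 in vehicle and 0.0891 to 0.104 in GV1001 libraries. A higher ratio to Nefl without overlap was found for 37.3% of all genes, so it does not set Gap43 apart.

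Among themselves the genes correlated to very different degrees. Over the 9 libraries, the 10 pairs among Nefl, Nefm, Nefh, Ina and Stmn2 had Pearson correlations of log2 CPM from 0.79 to 0.96, and from 0.55 to 0.95 after the group means were removed. Nefl and Nefm, which are adjacent protein-coding genes on chromosome 14 in the RefSeq annotation of GRCm38.p6, had the highest value, 0.96. Thy1 was as close to Nefh and Ina, at 0.85 with each, but at 0.66 with Nefl, 0.65 with Nefm and 0.53 with Stmn2. Prph and Tubb3 correlated with each other at 0.79 (0.75 with group means removed). With the 3 chains Prph was at 0.29 to 0.50 and Tubb3 at 0.25 to 0.63, lowest with Nefm and highest with Nefh in both. Gap43 lay nearest to Stmn2, at 0.58, and was at −0.03 with Tubb3. The points of each correlation share libraries, depth and tissue composition.

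Prph and Tubb3 were high in libraries with transcripts of sensory ganglia, whose neurons sit beside the cord and can come with it at dissection. Prph is a hallmark of small sensory neurons and is also made by motor neurons. The summed level of 14 dorsal root ganglion genes was 181, 529 and 157 CPM in naive replicates 1 to 3, 98.9, 146 and 141 CPM in vehicle replicates and 137, 469 and 244 CPM in GV1001 replicates. Scn10a, a sodium channel of pain-sensing neurons, was at 41.5 CPM in naive replicate 2, 31.4 CPM in GV1001 replicate 2 and 8.25 CPM in GV1001 replicate 3. It was at 0.376 CPM in vehicle replicate 2 and had no count in the other 5 libraries. Scn11a and Prdm12 had no count in any vehicle library. Of the 14 genes, 9, 14 and 9 had counts in naive replicates 1 to 3 and 9, 11 and 10 in vehicle replicates. In GV1001 replicates 9, 14 and 14 had counts. Thus all 14 were counted in the naive group through replicate 2 alone. The 3 libraries with Scn10a above the floor were also the 3 with the highest Prph, at 104, 84.5 and 55.5 CPM, against 28.5 to 51.1 CPM in the other 6. They included the 3 highest Tubb3 values as well, at 596, 556 and 551 CPM against 306 to 503 CPM. Over the 9 libraries the log2 summed level of the list had a Pearson r of 0.93 with Prph (rho 0.88) and 0.71 with Tubb3 (rho 0.87), and 0.69 and 0.50 without the 2 libraries farthest from the median. Over the 6 EAE libraries r was 0.90 with Prph and 0.67 with Tubb3, and 0.40 and −0.60 without the 2 farthest, so the relation of Tubb3 rests on a few libraries. Within the vehicle group, Tubb3 was highest (440 CPM) in the library with the least ganglion signal. With the mean of the neurofilament chains r was 0.38 over the 9 libraries, and with Nefh alone it was 0.50. Over the 6 EAE libraries r was 0.70 with Nefh, 0.23 with Nefl and 0.29 with Nefm. Without the 2 farthest of these libraries it was 0.48, 0.67 and 0.76. Some listed genes, such as Calca, Tac1 and Drgx, are also made by cord neurons. Markers of other peripheral tissue also varied between libraries: the Schwann cell list summed to 900 to 1415 CPM in naive, 477 to 2303 CPM in vehicle and 2310 to 3377 CPM in GV1001 libraries, and the skeletal muscle list to 125 to 454, 90.5 to 850 and 670 to 6093 CPM. The part of ganglion and other peripheral tissue in the Prph, Tubb3 and neurofilament differences was not tested.

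**Figure D3:**
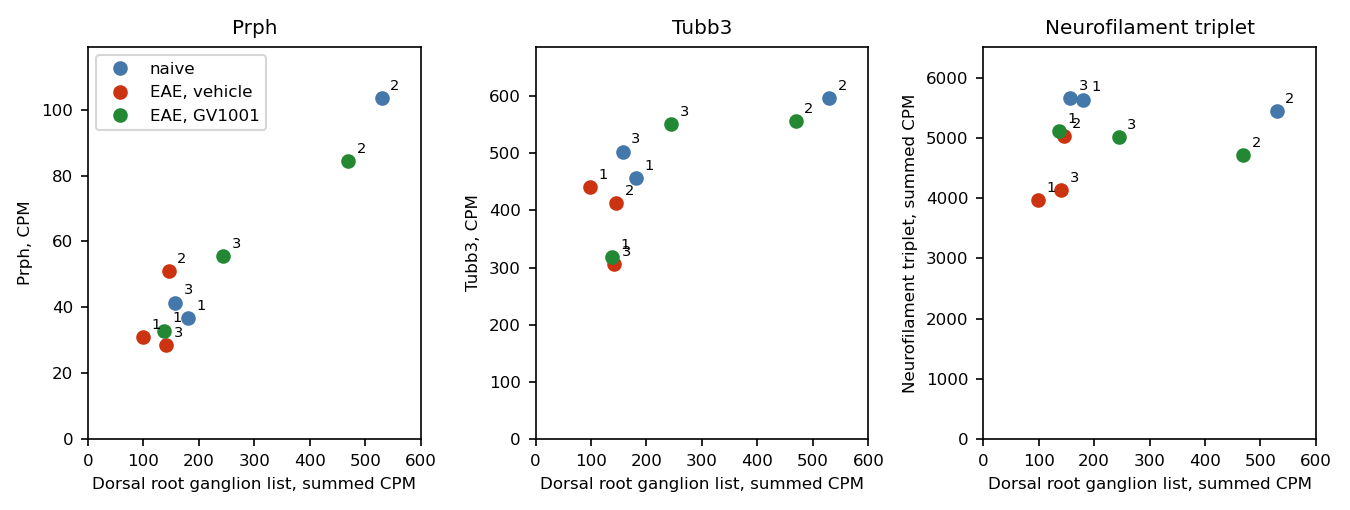
Level of Prph (left), Tubb3 (middle) and the summed neurofilament chains (right), in CPM, against the summed level of 14 dorsal root ganglion genes in CPM, 1 point per library with its replicate number, coloured by group. Naive replicate 2 (529 CPM of ganglion genes) and GV1001 replicate 2 (469 CPM) have the highest Prph, 104 and 84.5 CPM, while their neurofilament sums, 5451 and 4719 CPM, are not the highest.

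The RefSeq promoter table of GRCm38.p6 held 3 of the 9 genes, Ina, Prph and Tubb3. Their 250 bases upstream of the annotated start are shown because Ina was close to the neurofilament chains across libraries, while Prph and Tubb3 were closest to each other. Capitals mark matches on either strand to the TATA box (TATAAA), the CCAAT box (CCAAT), the GC box (GGGCGG), the AP-1 site (TGANTCA) or the cyclic AMP response element (TGACGTCA).
Ina, chr19:47014431-47014680, GRCm38.p6, plus strand: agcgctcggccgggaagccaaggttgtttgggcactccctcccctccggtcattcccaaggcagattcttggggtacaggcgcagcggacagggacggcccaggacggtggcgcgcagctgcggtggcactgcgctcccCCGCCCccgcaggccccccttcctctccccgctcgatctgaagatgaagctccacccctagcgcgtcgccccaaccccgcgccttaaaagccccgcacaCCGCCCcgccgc
Prph, chr15:99054924-99055173, GRCm38.p6, plus strand: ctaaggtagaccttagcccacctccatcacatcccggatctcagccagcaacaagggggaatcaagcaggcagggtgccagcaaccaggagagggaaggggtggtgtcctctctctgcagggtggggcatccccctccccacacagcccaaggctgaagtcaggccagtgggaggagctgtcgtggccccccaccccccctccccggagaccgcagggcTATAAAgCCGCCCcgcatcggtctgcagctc
Tubb3, chr8:123411303-123411552, GRCm38.p6, plus strand: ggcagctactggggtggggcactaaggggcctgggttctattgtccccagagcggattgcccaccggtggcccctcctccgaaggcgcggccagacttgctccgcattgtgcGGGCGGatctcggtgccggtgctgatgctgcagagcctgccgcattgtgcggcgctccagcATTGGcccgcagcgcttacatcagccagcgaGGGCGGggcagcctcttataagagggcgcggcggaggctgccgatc
Prph held a TATA box 31 to 26 bases before the start, which 12.4% of 32851 promoters of this length in the table contained, and a GC box 24 to 19 bases before the start. Ina and Tubb3 held 2 GC boxes each and no TATAAA. A GC box was found in 32.7% of all promoters, and the CCAAT box of Tubb3 in 33.8%. The AP-1 site, present in 6.75% of promoters, and the cyclic AMP response element, in 1.55%, were in none of these 3 windows. The share of G and C was 70.8% in Ina, 65.2% in Prph and 68.0% in Tubb3, against a median of 52.4%. No match of this kind shows a bound site, and Ina, Prph and Tubb3 are too few to relate letters to levels.

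Setting GV1001 libraries against vehicle libraries asked whether axonal transcripts differ in treated diseased cord. On average 8 of the 9 genes were higher with GV1001, Gap43 being the exception, and in every gene the libraries of both groups overlapped. None passed in edgeR, with a smallest adjusted p of 0.550 among the 9, and 0% of all genes passed. At an unadjusted p under 0.05, 0 of the 9 were reached, against 9.08% of all genes. DESeq2 called 0 of the 9 and 0.0569% of genes. A fold change below 0 was found for 1 of the 9, 51.4% of all genes and 38.1% of genes at 100 CPM or more. Nefl was at 2126, 1904 and 2063 CPM in GV1001 replicates 1 to 3, all above vehicle replicates 1 and 3 but not above replicate 2 throughout (log2 fold change 0.13 ± 0.11). Nefm was at 1839, 1588 and 1680 CPM (0.19 ± 0.13). Nefh was at 1146, 1228 and 1266 CPM (0.23 ± 0.11), and only its lowest GV1001 value lay below vehicle replicate 2. The group mean of the 3 chains together was 4946 ± 203 CPM with GV1001, 4375 ± 570 CPM with vehicle and 5583 ± 115 CPM in naive cord (SD, n = 3).

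Ina was at 529, 494 and 584 CPM with GV1001 (log2 fold change 0.27 ± 0.13 against vehicle) and Stmn2 at 625, 624 and 560 CPM (0.24 ± 0.14). Thy1 was at 320, 336 and 383 CPM (0.16 ± 0.13). Gap43 was at 189, 197 and 185 CPM (−0.05 ± 0.10), the narrowest range of the 3 groups. Prph was at 32.9, 84.5 and 55.5 CPM (0.65 ± 0.43), and without GV1001 replicate 2 its log2 fold change was 0.28. Tubb3 was at 318, 556 and 551 CPM (0.30 ± 0.21), with replicate 1 apart from the others, and without vehicle replicate 3 it was 0.15. The median of the 9 was 0.23, against −0.01 over all genes tested and 0.04 over genes at 100 CPM or more. Groups did not overlap upward for 0 of the 9, against 5.95% of all genes and 7.71% of genes at 100 CPM or more. Without vehicle replicate 2, 7 of the 9 (all but Gap43 and Tubb3) lay above vehicle without overlap, against 14.2% of all genes with the same libraries. Vehicle replicate 2 was the highest vehicle library in each of these 7, so leaving it out had to widen their difference. Again none of the 9 passed in edgeR, with a smallest adjusted p of 0.113. Vehicle replicate 3 and GV1001 replicate 2 had similar microglial sums, 2796 and 2891 CPM, with neurofilament sums of 4138 and 4719 CPM. Vehicle replicate 2 and GV1001 replicate 3 were also near each other, at 986 and 866 CPM, with neurofilament sums of 5025 and 5009 CPM. All of these are single libraries. Their ganglion sums differed as well, at 141 and 469 CPM in the first pair and 146 and 244 CPM in the other.

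**Figure D4:**
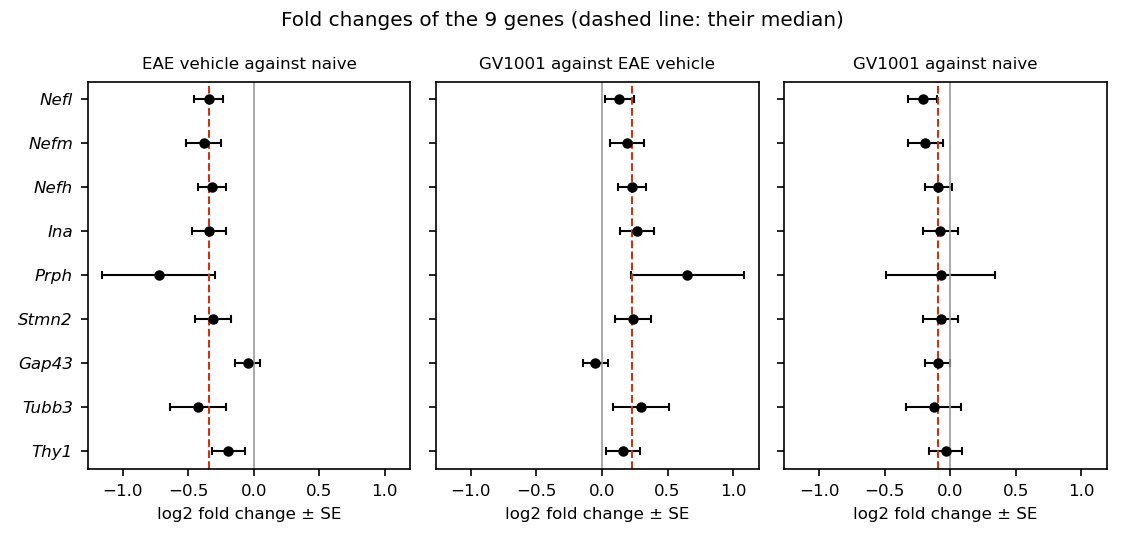
log2 fold change of each gene (points, horizontal axis) with its standard error in edgeR, in the 3 comparisons between groups; the dashed line is the median of the 9 genes and the grey line marks 0. All 9 lie below 0 in EAE vehicle against naive (median −0.34), 8 lie above 0 in GV1001 against EAE vehicle (median 0.23), and all 9 lie below 0 in GV1001 against naive (median −0.09); none passed the threshold in any panel.

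Against naive cord, the GV1001 libraries were lower in all 9 genes by small amounts. This comparison shares the naive libraries with the first and the GV1001 libraries with the second, so the 3 sets of fold changes are not independent. The log2 fold changes were −0.21 ± 0.11 for Nefl, −0.19 ± 0.13 for Nefm, −0.09 ± 0.11 for Nefh and −0.07 ± 0.13 for Ina. Prph was at −0.07 ± 0.42, Stmn2 at −0.07 ± 0.14, Gap43 at −0.10 ± 0.10, Tubb3 at −0.13 ± 0.21 and Thy1 at −0.03 ± 0.13. None passed in edgeR, where 0% of genes did, and the smallest adjusted p among the 9 was 0.726. At an unadjusted p under 0.05, 0 of the 9 were reached, against 7.3% of all genes, and DESeq2 called 0 of the 9 and 0.237% of genes. A fold change below 0 was found for 49.5% of all genes and 60.1% of genes at 100 CPM or more. Nefl, Nefm and Gap43 lay below naive in all 3 GV1001 libraries. This is 3 of 9, against 8.24% of all genes and 14.9% of genes at 100 CPM or more. That of Gap43 rested on 197.36 CPM in GV1001 replicate 2 against 197.46 CPM in naive replicate 2, with counting errors of 2.98% and 2.97%. The separation of Gap43 was lost with RLE scaling and with total counts only. It was also lost without vehicle replicate 2 or 3 and without GV1001 replicate 3, in each case through a change of scaling only. Without naive replicate 2 the value for Prph turned to 0.56, and 5 genes lay below naive without overlap, Nefh and Ina in addition, against 13.4% of all genes with the same libraries. Without GV1001 replicate 1, Prph, Tubb3 and Thy1 were at 0.20, 0.09 and 0.02.

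When both EAE groups were set against naive cord, the 6 EAE libraries all lay below the 3 naive libraries for Nefl and Nefm. The log2 fold changes were −0.28 ± 0.09 and −0.29 ± 0.11. These are 2 of the 9 genes, against 3.74% of all genes and 9.07% of genes at 100 CPM or more. Nefh was at −0.20 ± 0.09, with GV1001 replicate 3 above the lowest naive library, and Ina at −0.21 ± 0.11. Stmn2 was at −0.19 ± 0.12, Tubb3 at −0.27 ± 0.18, Prph at −0.40 ± 0.36, Thy1 at −0.12 ± 0.11 and Gap43 at −0.07 ± 0.08. None passed in edgeR, where 0.00651% of genes did, with a smallest adjusted p of 0.218. At an unadjusted p under 0.05, 3 of the 9 were lower (Nefl, Nefm and Nefh), against 15.3% of all genes in either direction. Of genes at 100 CPM or more, 15.4% were lower at that p. DESeq2 called 0 of the 9 and 3.34% of genes. All 9 fold changes were below 0, as were 51% of all genes and 64.3% of genes at 100 CPM or more. Without naive replicate 2, 4 genes did not overlap (Nefl, Nefm, Nefh and Ina), against 6.89% of all genes with the same libraries, and Prph was at 0.23. Without vehicle replicate 2, Nefl and Nefm passed in edgeR, with adjusted p-values of 0.0442 and 0.0464. That fit called 514 of 15848 genes in place of 1, and 126 of the 514 were lower. Leaving out any other single library gave no call among the 9 in this comparison.

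Other genes of the axon and neuron gave a frame for these values. Microtubule and transport genes, which carry neurofilaments and vesicles along the axon, were below 0 in 21 of 22 in vehicle against naive, with a median of −0.27. At an unadjusted p under 0.05, 14 were lower, and 0 passed in edgeR after adjustment. Of all genes, 50.5% were below 0 and 8.07% were lower at that p. Of genes at 100 CPM or more these shares were 65.4% and 19.4%, and they apply to the lists that follow as well. Kif5a, the neuronal kinesin heavy chain, was at 956, 984 and 1035 CPM in naive and 679, 806 and 702 CPM in vehicle libraries (−0.44 ± 0.10), and the microtubule-associated Map1a was at −0.48 ± 0.10. Map1b, the most abundant of the list, was at −0.34 ± 0.11. Genes of the axon initial segment and node were below 0 in 13 of 14 (median −0.28, 5 lower at an unadjusted p under 0.05, 0 passing). Ank3, the scaffold of the initial segment, was at 1013, 1034 and 1035 CPM in naive and 716, 800 and 737 CPM in vehicle libraries (−0.45 ± 0.09), and its partner Sptbn4 was at −0.70 ± 0.13. General neuron genes were below 0 in 23 of 24 (median −0.28, 10 lower at an unadjusted p under 0.05, 0 passing), with Snap25 at −0.26 ± 0.17 and Elavl4 at −0.55 ± 0.14. Motor neuron genes had a median of −0.29 over 9 tested, with Mnx1 at 0 counts in all libraries and Ache at −0.41 ± 0.14.

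Partners and turnover factors of neurofilaments were below 0 in 12 of 15 (median −0.21, 6 lower and 1 higher at an unadjusted p under 0.05, 0 passing). Cdk5r2, an activator of the kinase Cdk5 that phosphorylates neurofilament tails, was at 261, 231 and 244 CPM in naive and 147, 187 and 160 CPM in vehicle libraries (−0.58 ± 0.11). Vim, the intermediate filament of glia, endothelium and immune cells, was at 83.7 ± 18.1 CPM in naive and 374 ± 190 CPM in vehicle libraries (2.16 ± 0.41, edgeR adjusted p = 0.0674). Growth-cone genes and stathmins were below 0 in 13 of 17 (median −0.16, 4 lower and 1 higher at an unadjusted p under 0.05, 0 passing). Of genes at 100 CPM or more, 19.4% were lower at that p and 65.4% were below 0, so this list does not stand apart. Stmn4, a neuronal relative of Stmn2, was at −0.56 ± 0.11, while Marcks, which microglia also make, was at 0.87 ± 0.20. Axon degeneration genes were below 0 in 9 of 11 (median −0.14, 2 lower at an unadjusted p under 0.05, 0 passing). At that p this list does not stand apart from the 19.4% of genes at 100 CPM or more. Nmnat2, the NAD-synthesising enzyme that axons need to survive, had the smallest p of the list. It was at 125, 117 and 130 CPM in naive and 91.1, 98.4 and 83.5 CPM in vehicle libraries (−0.44 ± 0.11). Sarm1 was at −0.02 ± 0.21 and Nmnat1 at 0.13 ± 0.29.

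Axon injury and regeneration genes were the only one of these neuronal lists with a median above 0 in vehicle against naive, 0.38, with 11 of 13 above 0, 6 higher at an unadjusted p under 0.05 (11.3% of all genes) and 1 passing. The gene that passed, Atf3, a transcription factor that injured neurons and stressed cells induce, rose from 0.724, 1.05 and 0.925 CPM to 19.4, 9.2 and 13.0 CPM (log2 fold change 3.92 ± 0.47, edgeR adjusted p = 0.0258). Csf1, which injured sensory and motor neurons and glia make, was at 45.0 ± 2.27 and 87.8 ± 17.8 CPM (0.97 ± 0.17, adjusted p = 0.0629). Vgf, the most abundant of the list, was at −0.32 ± 0.20. The call of Atf3 was made in the libraries in which microglial genes were also high, and its cell of origin was not tested.

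**Figure D5:**
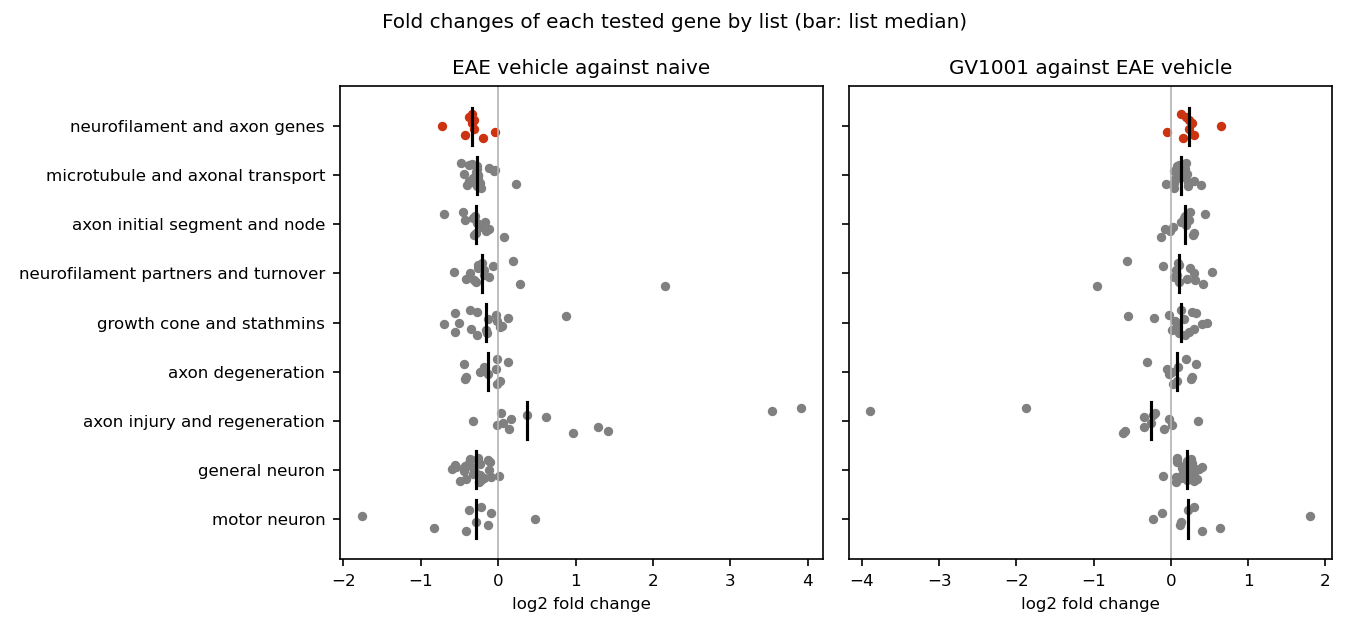
log2 fold change of every tested gene (points) in the 9 neurofilament and axon genes (red) and in 8 other lists (grey), with the list median as a black bar, for EAE vehicle against naive (left) and GV1001 against EAE vehicle (right). The medians of the 9 genes, of transport genes and of general neuron genes lie close together on the left, at −0.34, −0.27 and −0.28, and only the injury list has its median above 0, at 0.38.

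In GV1001 against vehicle the same lists had medians of the opposite sign, which is partly built in because both comparisons share the vehicle libraries. Transport genes were above 0 in 21 of 22 (median 0.14), initial segment and node genes in 11 of 14 (0.18), general neuron genes in 23 of 24 (0.21) and injury genes in 2 of 13 (−0.26). Below 0 were 51.4% of all genes and 38.1% of genes at 100 CPM or more. No gene of any list passed in edgeR. Kif5a was at 828, 836 and 868 CPM with GV1001 (0.21 ± 0.10), Ank3 at 836, 901 and 950 CPM (0.25 ± 0.09) and Sptan1, a spectrin of the axonal membrane, at 274, 305 and 321 CPM against 219, 223 and 243 CPM with vehicle (0.39 ± 0.10, adjusted p = 0.528). Cdk5r2 was at 215, 246 and 256 CPM (0.54 ± 0.11) and Atf3 at 2.08, 5.08 and 4.04 CPM (−1.87 ± 0.35), each without overlap with vehicle and each with an adjusted p of 0.528.

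Thy1 is shared with T cells and fibroblasts, so their markers stand beside it. The 13 T cell genes summed to 3.80 to 6.11 CPM in naive, 7.51 to 128 CPM in vehicle and 6.05 to 38.4 CPM in GV1001 libraries, with Cd3d, Cd3g, Cd4, Cd8a, Cd8b1, Cd2 and Cd5 at 0 counts in the naive group. The 6 fibroblast genes summed to 412 to 737, 531 to 1410 and 801 to 1313 CPM. Over the 9 libraries Thy1 correlated with the general neuron sum at an r of 0.73 and with the T cell sum at −0.42. The part of these cells in the Thy1 level was not tested.

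The genes whose library pattern was most like the mean of the 3 chains, of 7805 genes with a mean of 20 CPM or more, were Aktip, Trim37, Strbp, Tmem130 and the glycine receptor subunit Glra1, with Pearson r of 0.98 over the 9 libraries. Glra1 was at 683, 604 and 649 CPM in naive, 399, 575 and 432 CPM in vehicle and 589, 523 and 617 CPM in GV1001 libraries. Among the 9 genes themselves, Ina had an r of 0.94 with that mean, Stmn2 0.87, Thy1 0.74, Gap43 0.48, Tubb3 0.43 and Prph 0.39. Nearest to Prph were Klf7 (0.97), Dgkh (0.96), Grik1 (0.95), Wipf3 (0.95) and Ret (0.94). Nearest to Gap43 were Clip4 and Srp68 (both 0.93), Utp6 (0.92), Nsd2 and Tmem70 (both 0.90). These values are descriptions over libraries that share depth and tissue.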

How the data were processed

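RNA of 9 whole spinal cord samples was sequenced with a QuantSeq 3′ mRNA kit after extraction with TRIzol or a Maxwell RSC kit, per the labels' protocols. Which extraction served which sample is not given in the sources used here. The authors deposited unnormalized counts for each gene symbol, made with FastQC, STAR and HTSeq on GRCm39, per the submitters' processing notes. Versions, annotation release and the strand setting of the counting are not given there. The 9 single-library files held the same values as the table used here. Total counts per library were 5247246 to 6174870.

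A filter on low counts (filterByExpr over the groups, minimum 10) and TMM scaling came first. All 9 libraries were fitted with 1 coefficient per group in edgeR 4.0.16 (quasi-likelihood F test, R 4.3.3), and Benjamini-Hochberg adjusted p-values over 15351 genes were held against 0.05. Standard errors were derived from the F statistic. CPM refers to TMM-scaled sizes of the filtered libraries, and correlations used log2 CPM with a prior count of 2. The edgeR procedure was also run on simulated counts. These had planted fold changes larger than those of the 9 genes and the same dispersion in all groups. That run therefore cannot show how well changes of the size seen here are found. DESeq2 1.42.0 (no prior filter), limma-voom (limma 3.58.1), RLE and total-count scaling, no filter, the older quasi-likelihood fit, only the compared groups, the replicate number as a block and leaving out each library were alternatives. Figures used matplotlib 3.10.9.

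The 9 genes and the 16 other lists (215 entries) were chosen with earlier results of these data known. Besides the 9, the rule names from each list the most abundant tested gene and the 2 with the smallest p in each comparison with EAE vehicle, and the 5 genes most like the chains, Prph and Gap43. Part of these are given. Ap1b1 and Nt5c2 overlap Nefh and Ina, and the lncRNA A230070E04Rik overlaps Nefm, in the GRCm38.p6 annotation, so some reads could be assigned to either. Promoter sequences are from RefSeq, GRCm38.p6. Coordinates of that build were used with no value of the GRCm39 counts.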

Additional observations from a re-analysis of the deposited data

How the results depend on the processing

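Of 603 fold changes of single genes under the alternatives, 587 kept their direction and side of the threshold, 9 newly passed and 7 turned sign. All 7 came from leaving out 1 library. In vehicle against naive, Gap43 was at 0.03 without vehicle replicate 1 (range over all libraries left out −0.0993 to 0.03). In GV1001 against naive, Prph was at 0.5591 without naive replicate 2 and 0.2014 without GV1001 replicate 1 (range −0.4506 to 0.5591), Tubb3 at 0.0933 without GV1001 replicate 1 (−0.2526 to 0.0933) and Thy1 at 0.0177 without GV1001 replicate 1 and 0.0036 without naive replicate 3 (−0.1183 to 0.0177). In both EAE groups against naive, Prph was at 0.2328 without naive replicate 2 (−0.6582 to 0.2328). The cause was not tested.

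The number of the 9 genes called in vehicle against naive was 2 in DESeq2 and 0 in every other alternative that kept all libraries, and 0 to 5 when 1 library was left out. It stayed 0 in GV1001 against vehicle and in GV1001 against naive throughout, and was 0 to 2 in both EAE groups against naive. With 1 library left out, every call among the 9 came from the fit without vehicle replicate 2. Counts of the 9 without overlap, added after seeing the data, were also taken with 1 library left out. They ranged from 4 to 8 in vehicle against naive, where 11.3% to 21.1% of all genes were lower without overlap. In GV1001 against vehicle they were 0 to 7, with 5.52% to 14.2% of all genes higher. Lower in GV1001 against naive were 2 to 5 (8.18% to 17.3% of all genes), and 2 to 4 in both EAE groups against naive (4.36% to 6.89%).

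Over all genes, edgeR called 3 in vehicle against naive, 0 in GV1001 against vehicle, 0 in GV1001 against naive and 1 in both EAE groups against naive. In that order, DESeq2 called 1105, 12, 45 and 565 and limma-voom 0, 0, 0 and 0. In limma-voom, 2 of the 9 genes were at an unadjusted p under 0.05 in GV1001 against vehicle and 1 in GV1001 against naive. The share of all genes at that p was not taken in limma-voom, so nothing is read from these counts. The smallest limma-voom adjusted p-values of the 9 in these comparisons were 0.627 and 0.791. Total counts only gave 20, 0, 1 and 1, no filter 543, 0, 1 and 20, and the older fit 3, 0, 1 and 2. Only the compared groups gave 2, 0 and 5 in the first 3 comparisons. Same-numbered libraries of different groups correlated above 0.1 in 2 of 9 pairs after group means were removed, so the numbers were not taken to pair samples. The replicate block gave 0 in all 4, and no call among the 9 genes. Leaving out 1 library gave 0 to 1652, 0 to 8, 0 to 3 and 0 to 514, with 1652 and 514 without vehicle replicate 2. At an unadjusted p under 0.05, edgeR had 1394 genes in GV1001 against vehicle and 1121 in GV1001 against naive. Each edgeR fit took 1 dispersion per gene for all its groups, so equal spread was assumed throughout, also where an arm kept 2 libraries. The groups differed in spread, with an SD of Nefl of 16.4 CPM in naive and 202 CPM in vehicle libraries. Errors of GV1001 against naive in the main fit thus include the vehicle spread. With only the compared groups, the smallest edgeR adjusted p of the 9 there was 0.331. Counting error limits Prph most, at 5.42% of its naive mean against a spread between libraries of 61.5%.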
